A study of Mus musculus with 16 samples.

Results

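The comparison set tumours treated with mitotane plus 9-cis retinoic acid (combined, 4 arrays) against tumours of animals given corn oil (control, 4 arrays), that is 8 of the 16 arrays of the series. The tumours grew from H295R, a human adrenocortical carcinoma line that makes steroid hormones, inoculated into male SCID mice, hosts without a working adaptive immune system that still have innate immune cells and a blood supply of their own. Treatment was by mouth for 28 days in every group according to the labels, and doses and age are not given in the sources used here. Members were taken by their treatment label from the value table deposited for the series, and the mitotane (n = 4) and 9-cisRA (n = 4) arrays served to estimate the spread and to place the combined values. Each of 4 slides carried 1 array of every group, and replicates are numbered by slide. Whether each array came from its own animal is not stated, so the p-values speak only of the spread among these arrays, which could be partly technical.

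Mitotane is an adrenolytic drug that damages the mitochondria of steroid-producing adrenal cells and is used against adrenocortical carcinoma. 9-cis retinoic acid binds the retinoic acid receptors and the retinoid X receptors, which act as dimers on DNA and, as partners of other nuclear receptors, reach many hormone and lipid genes. The question was what both agents given together did to gene expression in the tumour.

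The array is a human design, whereas GEO lists the mouse as the organism. Of its 29094 identifiers, 1896 are the array's own probe names and the others are sequence or sequence-cluster identifiers, and all are called transcripts here. None matched the reference table at hand, which is a mouse one (0 of 29094). Transcripts are therefore given by identifier without a gene name or role, and the labelled tissue could not be checked against adrenocortical or other cell type markers. A difference in mouse host cells between groups was not tested for the same reason. In such bulk RNA, fewer cells of a type and less RNA per cell cannot be told apart.

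One array, control replicate 4, was unlike the rest. Its 75th percentile of signal was an intensity of 224.2, against 551.5 to 1061 on the other 14 arrays that have scanner files, and its median Pearson r with them across probes was 0.892, against 0.9605 to 0.988 elsewhere. The SD of its values over the transcripts tested was 1.35 on the log2 scale, against 0.262 to 0.307 for the other controls. Combined replicate 4, from the same slide, had the next largest SD, 0.512, against 0.228 to 0.394 in the other combined arrays, and 58.0% of its probes were well above background, the lowest share of the 15. Combined replicate 3 has values in the series table but no scanner file was used for it. Results against control are given with all arrays and without control replicate 4.

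Values are log2 signals centred by the authors on each probe's median over the 16 arrays, so that 0 is the middle array and a difference of 1 is a 2-fold difference. No transcript passed the test between combined and control tumours after correction for 20248 tests, with all arrays or without control replicate 4 (0 calls, 0% of those tested, limma with Benjamini-Hochberg adjustment at 0.05). The smallest adjusted p was 0.117 with all arrays and 0.096 without that control. Without correction, 3016 transcripts (14.9%) had p under 0.05 with all arrays, 2311 higher (11.4%) and 705 lower (3.48%) in combined tumours. A share of 0.05 of the tests would be 1012. Leaving out control replicate 4 gave 4534 (22.4%), 2766 higher (13.7%) and 1768 lower (8.73%). With all arrays, 2141 transcripts (10.6%) showed no overlap between the combined and control arrays, 1679 higher (8.29%) and 462 lower (2.28%). That count was 4844 (23.9%) without control replicate 4, with 2914 higher (14.4%) and 1930 lower (9.53%). Fewer control arrays make a lack of overlap easier to reach by chance, so the counts with and without that array are not alike.

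The balance between higher and lower transcripts differed between scalings of the arrays. The median log2 change over all transcripts was 0.07 with all arrays and 0.06 without control replicate 4. After centring or quantile normalisation of the table the higher and lower counts lay closer together, in part with more lower than higher. Why the scalings differed was not tested. After each array was centred on its own median, 1369 transcripts were higher and 1294 lower at unadjusted p under 0.05 with all arrays, and 2208 higher and 2238 lower without control replicate 4. After quantile normalisation of the table there were 1611 higher and 1721 lower with all arrays, and 2037 higher and 2467 lower without control replicate 4. With the scanner signals of the 3 combined arrays that have them, the excess of higher transcripts stayed. Scaled to the 75th percentile, they gave 2207 higher and 475 lower with all arrays, and 2533 higher and 1068 lower without control replicate 4. After normexp background correction and quantile normalisation there were 2104 higher and 536 lower with all arrays, and 2177 higher and 1601 lower without control replicate 4.

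The transcript with the smallest p among those measured well above background on every scanner array of both groups and without overlap was NM_025049. Its log2 centred signal was 0.419, 0.597, 0.569 and 0.827 in combined replicates 1 to 4, against -0.078, -0.319, -0.392 and -0.492 in control replicates 1 to 4. All 4 combined tumours lay above all 4 controls. The log2 change was 0.92 ± 0.15 (SE), a 1.90-fold difference, with all arrays (adjusted p = 0.117, limma) and 0.87 ± 0.14 without control replicate 4 (adjusted p = 0.096). On slides 1 to 4 the combined array exceeded the control array by 0.50, 0.92, 0.96 and 1.32. Mitotane and 9-cisRA arrays all lay below the lowest combined array, with means of 0.06 ± 0.22 under mitotane (SD, n = 4) and 0.09 ± 0.18 under 9-cisRA (SD, n = 4), but the difference of combined from mitotane did not pass (log2 change 0.54, adjusted p = 0.202 in limma without control replicate 4).

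CR616125 was next among the higher ones when all arrays were used. It stood at 0.425, 0.418, 0.045 and 0.263 in combined replicates 1 to 4, against -0.562, -0.292, -0.473 and -0.644 in control replicates 1 to 4. Combined replicate 3 was the lowest of its group and still above every control, as the choice of transcripts required. The log2 change was 0.78 ± 0.15 (SE, adjusted p = 0.175, limma). Mitotane replicates 1 and 3, at 0.049 and 0.116, and 9-cisRA replicate 1, at 0.38, lay within the combined range. The other single-agent arrays lay below it.

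NM_005480 came second once control replicate 4 was left out. It was 0.346, 0.563, 0.373 and 0.709 in combined replicates 1 to 4, against -0.099, -0.185 and -0.036 in control replicates 1 to 3 and -0.45 in control replicate 4. No combined array overlapped a control, which the choice required only for control replicates 1 to 3. Slide 4 showed the largest gap, 1.16, against 0.45, 0.75 and 0.41 on slides 1 to 3. The log2 change was 0.60 ± 0.11 (SE, adjusted p = 0.096, limma), and the means were 0.01 ± 0.08 under mitotane and 0.01 ± 0.11 under 9-cisRA (SD, n = 4 each).

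**Figure D1:**
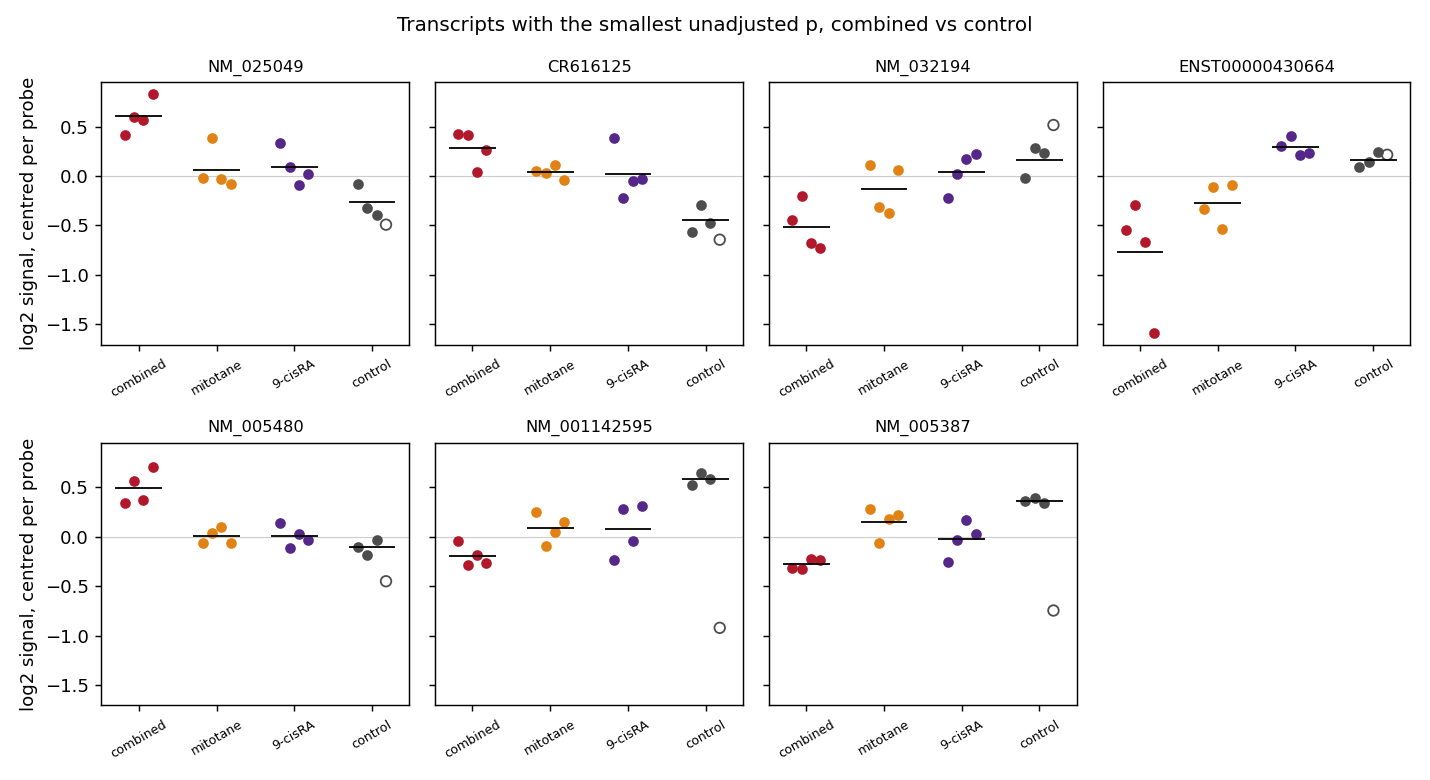
Log2 signal centred per probe (vertical axis) of 7 transcripts, by treatment group. They had the smallest unadjusted p in either fit among transcripts well above background on every scanner array of both groups. A further condition was no overlap between the combined and control arrays of that fit. Each point is 1 array, bars are means, and the open circle is control replicate 4, left out of the mean. Combined values of NM_025049, CR616125 and NM_005480 all lay above the controls, and control replicate 4 lay below the combined arrays for NM_001142595 and NM_005387, while the other controls lay above them.

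Among lower transcripts with all arrays, NM_032194 was -0.44, -0.203, -0.676 and -0.724 in combined replicates 1 to 4, against -0.017, 0.287, 0.23 and 0.516 in control replicates 1 to 4. Mitotane replicates 2 and 3, at -0.315 and -0.376, and 9-cisRA replicate 1, at -0.227, lay within the combined range. The other single-agent arrays lay above it. The log2 change of NM_032194 was -0.76 ± 0.17 (SE, adjusted p = 0.175, limma). That combined and control arrays did not overlap was a condition of the choice. ENST00000430664 was -0.546, -0.289, -0.667 and -1.586 in combined replicates 1 to 4, against 0.095, 0.14, 0.24 and 0.215 in control replicates 1 to 4. Combined replicate 4 was the lowest array by far. The log2 change of ENST00000430664 was -0.94 ± 0.21 with all arrays (adjusted p = 0.175, limma), and it ran from -1.11 to -0.67 when single arrays were left out. Under 9-cisRA alone this transcript stood at 0.29 ± 0.08, and under mitotane alone at -0.27 ± 0.21 (SD, n = 4 each).

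The 2 lower transcripts with the smallest p without control replicate 4 were NM_001142595 and NM_005387, and both depended on leaving that array out. NM_001142595 was -0.046, -0.29, -0.182 and -0.27 in combined replicates 1 to 4, against 0.528, 0.65 and 0.582 in control replicates 1 to 3 and -0.921 in control replicate 4. Its log2 change was -0.78 ± 0.13 (SE) without control replicate 4 (adjusted p = 0.096, limma) and -0.41 ± 0.27 with it (adjusted p = 0.505). Mitotane replicate 2, at -0.09, and 9-cisRA replicates 1 and 3, at -0.23 and -0.047, lay within the combined range. The other single-agent arrays lay above it. NM_005387 was -0.311, -0.327, -0.224 and -0.235 in combined replicates 1 to 4, against 0.358, 0.394 and 0.341 in control replicates 1 to 3 and -0.746 in control replicate 4. The combined arrays and the first 3 controls were each within a range of about 0.1, and the difference on slide 4 ran the opposite way, 0.51 against -0.67, -0.72 and -0.57 on slides 1 to 3. The log2 change of NM_005387 was -0.64 ± 0.11 (SE) without control replicate 4 (adjusted p = 0.096, limma) and -0.36 ± 0.21 with it (adjusted p = 0.443). Among its single-agent arrays, 9-cisRA replicate 1, at -0.257, lay within the combined range and the others lay above it.

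For most transcripts the arrays bounded the change. With control replicate 4 left out, the 95% interval of the log2 change lay wholly within a 2-fold difference for 17297 of 20248 transcripts (85.4%) and within a 4-fold difference for 19971 (98.6%). With all arrays the shares were 77.0% and 96.9%. The fitted change itself passed 2-fold for 186 transcripts upward and 98 downward without control replicate 4, and for 102 upward and 290 downward with all arrays.

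The slides share no array, so the combined minus control difference of one slide is a separate reading from that of another. Across 20248 transcripts, the differences of slides 1 and 2 correlated with Pearson r = 0.444, those of slides 1 and 3 with r = 0.315 and those of slides 2 and 3 with r = 0.293. Against slide 4 they correlated with r = -0.188, -0.04 and -0.164. These are descriptions across transcripts, which share the array, its labelling and its scaling. The direction was the same on slides 1, 2 and 3 for 6039 transcripts that were higher (29.8%) and 3701 that were lower (18.3%) in combined tumours. On all 4 slides it was the same for 3074 that were higher (15.2%) and 1235 that were lower (6.10%). Some transcripts share a direction by chance, more easily on 3 slides than on 4, and these shares were not tested against chance. Past 2-fold on each of slides 1 to 3 there were 27 higher transcripts, 19 of them well above background on every scanner array of both groups, and 7 lower ones, 4 of them so measured.

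**Figure D2:**
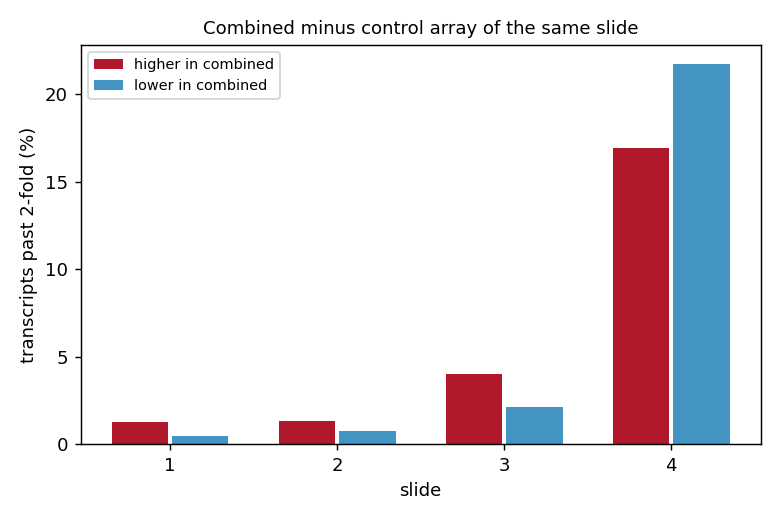
Share of 20248 transcripts (vertical axis, percent) whose combined array lay past 2-fold above or below the control array of the same slide, for slides 1 to 4. Slides 1 to 3 had 1.27% to 3.99% higher and 0.489% to 2.15% lower, and slide 4, which holds control replicate 4, had 16.9% higher and 21.7% lower.

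The first principal component of the 15 arrays other than control replicate 4 held 24.55% of the variance. The combined arrays scored 5.75, -1.91, 40.6 and 53.6 in replicates 1 to 4, against -20.0, -25.2 and -15.8 in control replicates 1 to 3. The groups did not overlap, and combined replicates 3 and 4 lay much farther out than replicates 1 and 2. Mitotane arrays ranged from -21.3 to 16.2 and 9-cisRA arrays from -21.9 to -1.20. Combined replicates 1 and 2 were thus within the mitotane range, and combined replicate 2 was also within the 9-cisRA range. With all arrays the first component held 55.4% and gave control replicate 4 a score of 180.1, against -27.0 to 15.2 elsewhere.

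**Figure D3:**
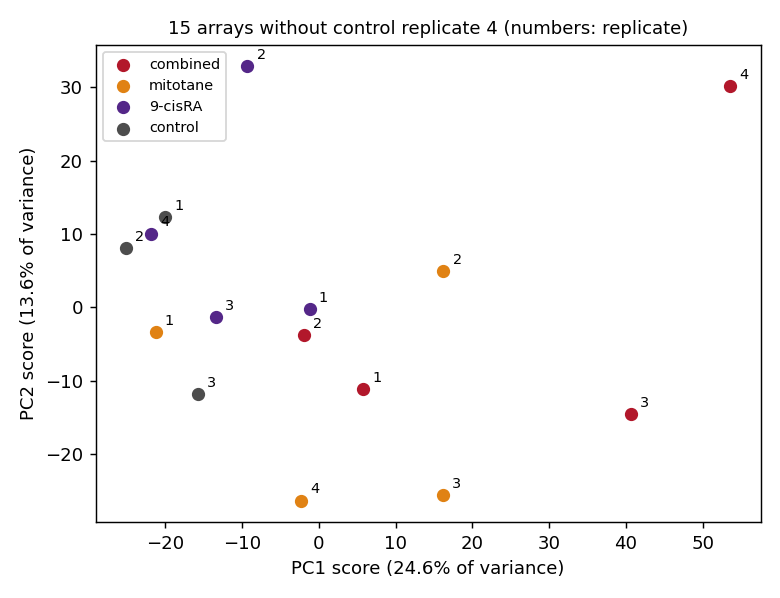
Scores of the first (horizontal axis) and second (vertical axis) principal component of the centred log2 signals for 15 arrays without control replicate 4; colours are groups and numbers are replicates. Combined replicates 3 and 4 lie at 40.6 and 53.6 on the first component, and the 3 controls at -15.8 or below.

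Transcripts were also grouped by the kind of identifier, the only annotation in the files. Without control replicate 4, every kind but RefSeq mRNAs had a higher median change than the whole set. With all arrays RefSeq predicted transcripts and RefSeq mRNAs, both at 0.08, lay just above the whole set, at 0.07. RefSeq non-coding RNAs, a class that takes in long non-coding RNAs and transcribed pseudogenes, then had a median change of 0.17. Of 1044 tested, 231 were higher (22.1%) and 29 lower (2.78%) at unadjusted p under 0.05 without control replicate 4, where 13.7% and 8.73% of all transcripts were, and none passed correction (limma). With all arrays 201 were higher (19.3%) and 15 lower (1.44%), where 11.4% and 3.48% of all transcripts were. Their median log2 change without control replicate 4 was 0.18, against 0.06 for all transcripts. After centring of the arrays it was 0.14, against 0.02 for all transcripts. The array medians of these RNAs were 0.12, 0.06, 0.10 and 0.08 in combined replicates 1 to 4, against -0.08, -0.04, -0.03 and -0.26 in control replicates 1 to 4. Every combined array lay above every control, and mitotane replicate 3, at 0.10, lay within the combined range. Taken relative to the array's own median over all transcripts, they were 0.09, 0.06, 0.05 and 0.06 in combined replicates 1 to 4, against -0.07, -0.02 and -0.02 in control replicates 1 to 3 and 0.10 in control replicate 4, so the separation on that scale needed control replicate 4 to be left out.

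RefSeq mRNAs were near the middle. Of 15328 tested, 1922 were higher (12.5%) and 1599 lower (10.4%) at unadjusted p under 0.05 without control replicate 4, with a median log2 change of 0.03, which was -0.01 after centring of the arrays. RefSeq predicted transcripts (262) had a median of 0.21, Ensembl transcripts (1342) one of 0.15 and the remaining identifiers (2272, of which 1001 are probe names) one of 0.17 on the same arrays. At unadjusted p under 0.05 on those arrays, 21.0% of the RefSeq predicted transcripts were higher and 1.91% lower. The shares were 14.3% and 4.02% for Ensembl transcripts and 16.1% and 3.565% for the remaining identifiers. After centring of the arrays the medians were 0.17, 0.11 and 0.13. With all arrays the medians of the same kinds were 0.08, 0.05 and 0.02, and they turned to -0.05, -0.08 and -0.10 after centring, while that of RefSeq non-coding RNAs was 0.17 and then 0.04. The kinds differ in detection. Of the RefSeq non-coding RNAs tested, 67.9% were well above background on every scanner array of both groups, against 78.1% of the RefSeq mRNAs. Among the 709 RefSeq non-coding RNAs so detected, the median change without control replicate 4 was 0.19, against 0.06 for all transcripts so detected. The kinds differ in signal as well. The median log2 signal, not centred per probe, was -2.231 for RefSeq non-coding RNAs and -1.004 for RefSeq mRNAs. It was -3.384 for RefSeq predicted transcripts, -3.192 for Ensembl transcripts and -2.847 for the remaining identifiers. Whether the kinds differed in change at like signal was not tested.

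**Figure D4:**
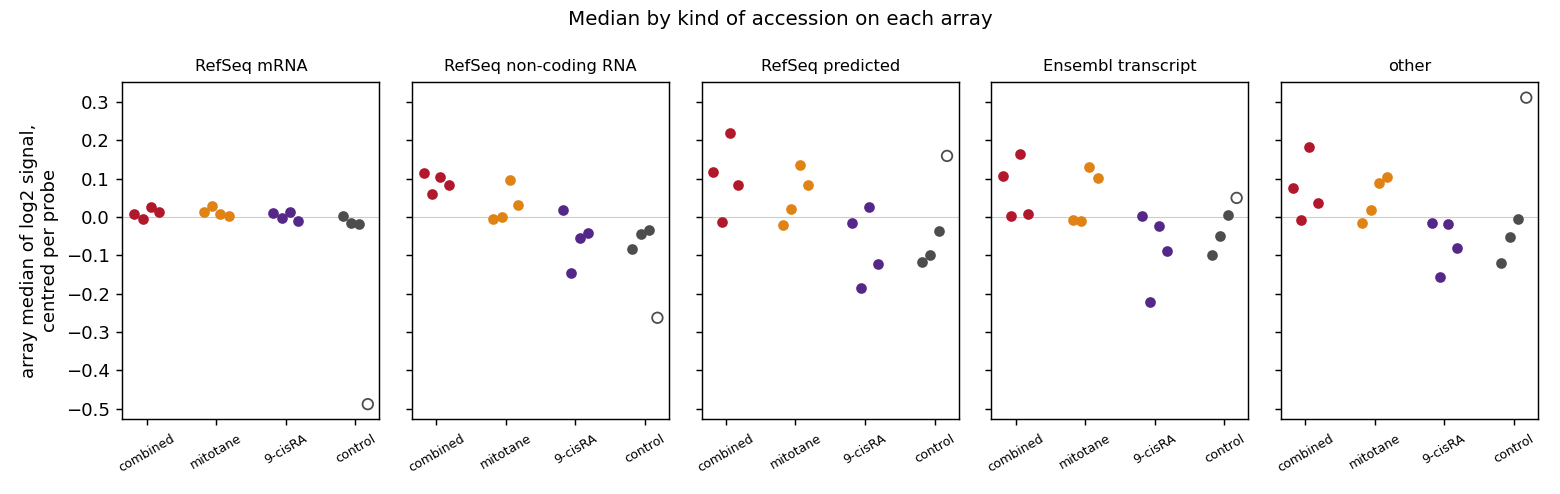
Median log2 centred signal over all tested transcripts of a kind (vertical axis) on each array, by treatment group; the open circle is control replicate 4. For RefSeq non-coding RNAs the 4 combined arrays lie at 0.06 to 0.12 and the controls at -0.03 or below, and for RefSeq mRNAs control replicate 4 lies at -0.49.

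Signal strength moved with the result as well. Transcripts were split into 4 bins of 5062 by mean signal. With all arrays, 327 in the dimmest bin were higher and 102 lower at unadjusted p under 0.05 (8.475% in all). In the brightest bin 874 were higher and 218 lower (21.6%). Without control replicate 4 these counts were 527 and 229 in the dimmest bin and 855 and 435 in the brightest. The median log2 change was -0.02 in the dimmest and 0.15 in the brightest bin with all arrays. Without control replicate 4 the order was reversed, with 0.13 and 0.06. On the arrays left without control replicate 4 the shares past that p were 14.9%, 23.45%, 25.7% and 25.5% from the dimmest to the brightest bin. The median SE of the log2 change was then 0.255 in the dimmest bin and 0.131 in the brightest.

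Few transcripts were detected in one group alone. Of 29094 identifiers, read by their brightest probe, 2 were well above background on all 3 combined scanner arrays and on none of the 4 controls, and 6 on all 4 controls and on none of the combined arrays. Leaving out control replicate 4 made these counts 2 and 36. Combined replicate 4 detected 58.5% of identifiers against 72.5% and 73.2% on combined replicates 1 and 2. Without it the counts were 45 and 7 with 4 controls, and 60 and 39 with 3 controls.

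Of 3126 transcripts read by several probes, all probes gave a change of the same sign for 1927 (61.6%) without control replicate 4. Among the 704 of them with an unadjusted p under 0.05, the probes shared a sign for 666. That p comes from the average of the same probes on the same arrays. Choosing by it favours a shared sign, so the 666 are a description only.

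Each single agent was set beside the combination for the same transcripts. For the 2766 higher transcripts without control replicate 4, the median log2 change was 0.45 in combined, 0.21 in mitotane and 0.11 in 9-cisRA tumours. For the 1768 lower ones it was -0.48, -0.24 and -0.13. The 3 comparisons share the control arrays, and the transcripts were chosen on the combined one, so these medians are a description. In the direct comparison of combined with mitotane, which does not use the control arrays except for the spread, 0 transcripts passed with all arrays and 2 (0.00988%) without control replicate 4 (limma), while 963 (4.76%) and 2390 (11.8%) had an unadjusted p under 0.05. Leaving out combined replicate 4 in place of that control made the 963 fall to 519. One was NM_176812, at -0.288, -0.299, -0.266 and -0.102 in combined replicates 1 to 4, against 0.444, 0.457, 0.36 and 0.6 in mitotane replicates 1 to 4. The log2 change of NM_176812 was -0.70 ± 0.09 (SE, adjusted p = 0.0199, limma), and control replicates 1 to 3 lay between, at 0.053 to 0.226, with control replicate 4 at -0.808. The other was NM_000272, at 0.211, 0.313, 0.453 and 0.24 in combined replicates 1 to 4, against -0.392, -0.237, -0.454 and -0.497 in mitotane replicates 1 to 4. Its log2 change was 0.70 ± 0.10 (SE, adjusted p = 0.0489, limma), and with the slide as a block it no longer passed (adjusted p = 0.123). Control replicates 1 to 3 stood at -0.332 to -0.079 for NM_000272, and control replicate 4 at 1.809. With all arrays the adjusted p was 0.9997 for NM_000272 and 0.841 for NM_176812 (limma). Of 24 alternatives to the fit without control replicate 4, NM_000272 passed in 6 and NM_176812 in 16. Both calls were lost without the filter on dim probes (adjusted p = 0.161 for NM_000272 and 0.0707 for NM_176812, limma) and with the scanner signals of 3 combined arrays. For combined against 9-cisRA, 0 transcripts passed with all arrays or without control replicate 4 (limma), while 1990 (9.83%) and 4314 (21.3%) had an unadjusted p under 0.05. The 1990 became 1310 without combined replicate 4.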

How the data were processed

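Tumour RNA was read on human Agilent arrays with a single dye, Cy3, per the labels' protocols. The scanner files hold 1 intensity per spot, background-subtracted and spatially detrended without scaling between arrays, made with Feature Extraction 11.0.1.1 per the file headers (11.0.1 per the submitters' processing notes). They also hold flags per spot, among them the deposited well-above-background flag. The log2 values analysed come from the authors' deposited series table, and the sources used here do not state how it was made. Every one of 34127 probes had a median of 0 over the 16 columns, and the columns of the 15 arrays with scanner files followed the log2 signal of their array (r of at least 0.999). Scale, centring and direction are known for these, and the exact scaling step is not. The column of combined replicate 3 could not be checked in this way. Over the transcripts tested, columns had medians of -0.03 to 0.05, except control replicate 4 at -0.36.

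Probes well above background on every scanner array of at least 1 group were kept and averaged per identifier, which left 20248 of 29094. All groups entered one model in limma 3.58.1 (R 4.3.3), two-sided, with adjusted p under 0.05 as the threshold; plots used matplotlib 3.10.9. The number of arrays limits the precision. The fit was tested on simulated data with known changes and the measured spread. It called 43% of 2-fold and 87% of 4-fold changes with all arrays, and 72% and 96% without control replicate 4. It also called 2 and 8 unchanged transcripts. The simulated noise was independent between transcripts, which that of the arrays need not be. Normexp used the spot median, as the files hold no spot mean. The members and lists were chosen with earlier results of these data known. The 32 gene lists (600 genes) and the rule for named genes need gene symbols, matched 0 identifiers and were not used; instead, each fit gives 2 identifiers a direction, those of smallest p among non-overlapping ones above background throughout, plus the 2 that passed against mitotane. These were chosen once their values had been seen. The kinds of identifier were likewise grouped afterwards. The slide named in the titles pairs the arrays. Deviations of same-slide combined and control arrays from their group means correlated with r = 0.181, 0.323, -0.304 and 0.00229 on slides 1 to 4. Pairs from different slides ran from -0.441 (combined replicate 3, control replicate 2) to 0.438 (combined replicate 3, control replicate 4). The control mean includes control replicate 4, so these r do not isolate the slide. The slide as a block is an alternative.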

Additional observations from a re-analysis of the deposited data

Results flagged for a closer look

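Sets of 4 arrays were screened for an array far from its group, its gap to the nearest other array being most of the group's range. Scanner measures, such as outlier spots, were screened among the controls only, so no combined array could be marked on them. Of 37 sets, 11 were marked. Chance marks about 1 in 20 sets that were not chosen by their values. That rate does not hold for the transcripts below, since they were picked by small p without control replicate 4. Nor does it hold for the array measures of control replicate 4, which was singled out beforehand as dim and poorly correlated. Its marks overlap in what they measure and are not separate findings. Control replicate 4 accounted for 10. It was marked for its column median (-0.362, other controls -0.0233 to -0.0142), its column SD (1.345, others 0.262 to 0.307), the median of RefSeq mRNAs (-0.489, others -0.0177 to 0.00365), outlier spots (511, others 281 to 313), the SD between copies of a probe (0.139, others 0.0737 to 0.0778) and its median r with the other arrays (0.892, others 0.986 to 0.988). It was also marked for NM_000272 (1.809), NM_001142595 (-0.921), NM_005387 (-0.746) and NM_176812 (-0.808). Combined replicate 4 was marked for NM_176812, at -0.102 against -0.299 to -0.266 in the other combined arrays. Its outlier spots (589, against 273 and 304 in combined replicates 1 and 2) were not screened. Nor was its SD between copies of a probe (0.107, against 0.0748 and 0.0752).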

How the results depend on the processing

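For combined against control, array weights moved the count most. Weighted limma fits gave 6745 calls with all arrays and 7286 without control replicate 4, or 9097 and 9559 at unadjusted p under 0.05. In the first of these, control replicate 2 weighed 9.19 and control replicate 4 weighed 0.0364. The cause was not tested. The count was 1 after quantile normalisation of the table with all arrays, and 0 under the other alternatives that left out no array. With only combined and control arrays in the model, the 3016 became 1672. Leaving out single arrays gave 0 to 0 calls and 1950 (without combined replicate 4) to 4534 (without control replicate 4) at unadjusted p under 0.05, and 0 to 1 calls (1 without 9-cisRA replicate 1) and 3076 to 5167 from the fit without control replicate 4. All 8 log2 changes against control given above kept their direction under each alternative run and passed with array weights only.

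For combined against mitotane with all arrays, quantile normalisation gave 5 calls and array weights 104, and leaving out single arrays gave 0 to 3. Without control replicate 4 the 2 calls became 1 with the replicate block (slide), 0 with scanner signals, 11 with normexp and quantile, 6 with centred columns, 5 with quantile normalisation, 0 without a filter, 11 with probes above background on all arrays, 1 with the brightest probe and 55 with array weights, and 0 to 6 when single arrays were left out. For combined against 9-cisRA, quantile normalisation gave 1 call with all arrays and array weights 2046. Without control replicate 4 the counts were 213 with normexp and quantile, 1 with quantile normalisation, 462 with probes above background on all 15 scanner arrays and 1867 with array weights, and 0 to 906 when single arrays were left out, the 906 without 9-cisRA replicate 1 and 78 without combined replicate 2. The block changed no call against control.

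The number of arrays limits the precision, dim transcripts had larger standard errors than bright ones, and combined replicate 3 enters through the value table alone.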
